A study of Mus musculus with 24 samples.

Results

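The RNA displayed on the surface of splenic T cells was compared with that on splenic B cells and natural killer (NK) cells, using the 3 T cell libraries among the 15 surface RNA libraries and 24 samples of the series. The T cell libraries were set against the mean of 3 B cell and 3 NK libraries. Transcripts entered the comparison when they exceeded 10 TPM (the length-corrected share of a library's reads, scaled to a fixed total) in at least 1 of these 9 libraries, which kept 1353 of the 102168 listed transcripts, from 1214 genes. All 9 libraries came from the spleen of C57BL/6 mice that the labels give as wild type, and no treatment is given. The text of the series speaks of bone marrow for the cell types in general, whereas the labels and protocols of these samples give spleen. Erythrocytes were lysed, and the protocols name magnetic isolation kits for CD8 T cells, B cells and NK cells. AMOUR, the assay used, fixes intact cells, holds them on lectin-coated beads, primes the RNA exposed outside the membrane with a random primer that carries a T7 promoter, and amplifies it in place with T7 RNA polymerase. The methods call the replicates biological, but nothing says that they came from separate animals, so the p-values measure the spread between these samples, which may be technical.

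T cells recognise antigen through a receptor whose alpha and beta chains are assembled from variable (V), diversity, joining (J) and constant segments, while B cells assemble immunoglobulins in the same manner and display antigen on MHC class II molecules. NK cells carry no rearranged receptor and kill through germline-encoded receptors and granule proteins. Small nucleolar RNAs (snoRNAs) guide the chemical modification of ribosomal and spliceosomal RNA inside the nucleolus. Box C/D snoRNAs guide ribose methylation and box H/ACA snoRNAs guide pseudouridylation, and most are cut from introns of host genes.

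TPM keeps no depth, so the depth of these libraries is unknown and no counting intervals are given. A lower TPM in bulk samples cannot tell fewer cells of a type from less RNA per cell. The tested transcripts held 97.4% to 99.4% of the TPM of a library. Pearson's r of TPM between T cell replicates was 0.961 to 0.976, 0.818 to 0.985 between B cell replicates and 0.981 to 0.999 between NK replicates. T cell replicate 1 held the least protein-coding RNA of the 9 libraries, 6448 TPM, against 15175 and 12038 TPM in replicates 2 and 3 and 14891 to 29592 TPM in the B cell and NK libraries. Values that rest on this library are given without it below.

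The label was checked against markers of T cells. Cd8b1, the beta chain of the CD8 coreceptor, summed over its transcripts to 8.68, 24.9 and 17.1 TPM in T cell replicates 1, 2 and 3, and stayed at or below 0.105 TPM in the B cell and NK libraries. Cd3e, a signalling chain of the T cell receptor, was read from Cd3e-201 at 4.12, 11.4 and 7.58 TPM. Cd4, the coreceptor of helper T cells, was at 0.017, 0.027 and 0 TPM, and none of the 10 genes of the CD4 and regulatory T cell list reached the filter. The libraries thus carried markers of CD8 T cells and were near 0 for Cd4, although the sample titles say T cell without CD8. The T cell lists as a whole separated the types less. The receptor complex and signalling list summed to 71.7, 211 and 144 TPM in T cells, 38.7 to 58.2 TPM in B cells and 39.7 to 96.4 TPM in NK cells. The naive T cell transcription and homing list summed to 79.9, 251 and 171 TPM, against 116 to 170 TPM and 58.1 to 129 TPM. T cell replicate 1 overlapped NK cells for both and lay below B cells for the naive list. In T cells, summed markers of B cells and NK cells were low beside the types that own them. The B cell list gave 48.4, 90.0 and 290 TPM in T cells against 2140 to 3116 TPM in B cells. In NK replicates 1, 2 and 3 it gave 550, 792 and 940 TPM, more than in any T cell library. The NK list gave 17.6, 49.7 and 39.7 TPM in T cells and 3.39 to 4.10 TPM in B cells, against 298 to 777 TPM in NK cells. T cell replicate 3 carried the most B cell marker RNA of the 3. The erythroid list summed to 4.61 to 11.0 TPM in T cells and 1.21 to 16.7 TPM in B cells but 74.7 to 126 TPM in NK cells, and the neutrophil list to at most 1.28, 1.13 and 50.2 TPM. The monocyte, dendritic, platelet and plasma cell lists were also highest in an NK library, at 33.8, 56.8, 12.3 and 36.8 TPM, against at most 18.5, 7.05, 0.905 and 13.4 TPM in T cells. The part of these other cells, and of the B cell marker RNA in NK libraries, in the differences from NK cells and from the mean was not tested.

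Which surface RNAs set T cells apart was asked first by RNA type. SnoRNA took a larger share of the T cell surface than of either other type, and protein-coding RNA a smaller one. SnoRNA held 7.60%, 6.42% and 5.02% of TPM in T cell replicates 1, 2 and 3, against 1.05% to 1.70% in B cells and 2.39% to 3.36% in NK cells. All T cell values lay above all others, with a log2 ratio of 1.64 (two-sided exact permutation test, p = 0.0119, the smallest that the 84 choices of 3 libraries allow; adjusted p = 0.031 over 21 types). Spliceosomal small nuclear RNA (snRNA) held 18.1%, 16.3% and 17.4% in T cells and 9.92% to 14.3% in the other libraries, a log2 ratio of 0.66 (exact permutation test, adjusted p = 0.031), which fell to 0.23 and no longer passed when ribosomal RNA and 3 same-valued microRNA transcripts were left out of the total. The type named misc_RNA, which holds the 7SL, 7SK and Y RNAs, was at 5.44%, 6.12% and 3.96% against 2.52% to 3.24% (exact permutation test, adjusted p = 0.031), and it too did not pass on that total, at a log2 ratio of 0.38. Protein-coding RNA held 0.645%, 1.52% and 1.20% in T cells and 1.49% to 2.96% elsewhere, so T cell replicate 2 overlapped the lowest NK library (log2 ratio -1.12, exact permutation test, adjusted p = 0.042). As a difference in percent, -1.24, it did not pass (exact permutation test, adjusted p = 0.065). Ribosomal RNA, the largest type, held 43.7% to 53.6% in T cells and did not pass against the others (exact permutation test, adjusted p = 0.72). T cells overlapped B cells, at 42.8% to 64.2%, but lay above all NK libraries, at 36.0% to 40.0%. MicroRNA hairpins held 11.2% to 15.9% in T cells and 14.9% to 34.5% elsewhere (log2 ratio -0.99, exact permutation test, adjusted p = 0.058). The 3 same-valued transcripts made up 9.72% to 13.8% of TPM in T cells and 10.6% to 31.5% elsewhere. On the total without them and ribosomal RNA, microRNA held 3.48% to 5.29% in T cells and 8.30% to 16.9% elsewhere. It then passed, at a log2 ratio of -1.48 (exact permutation test, adjusted p = 0.022).

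**Figure D1:**
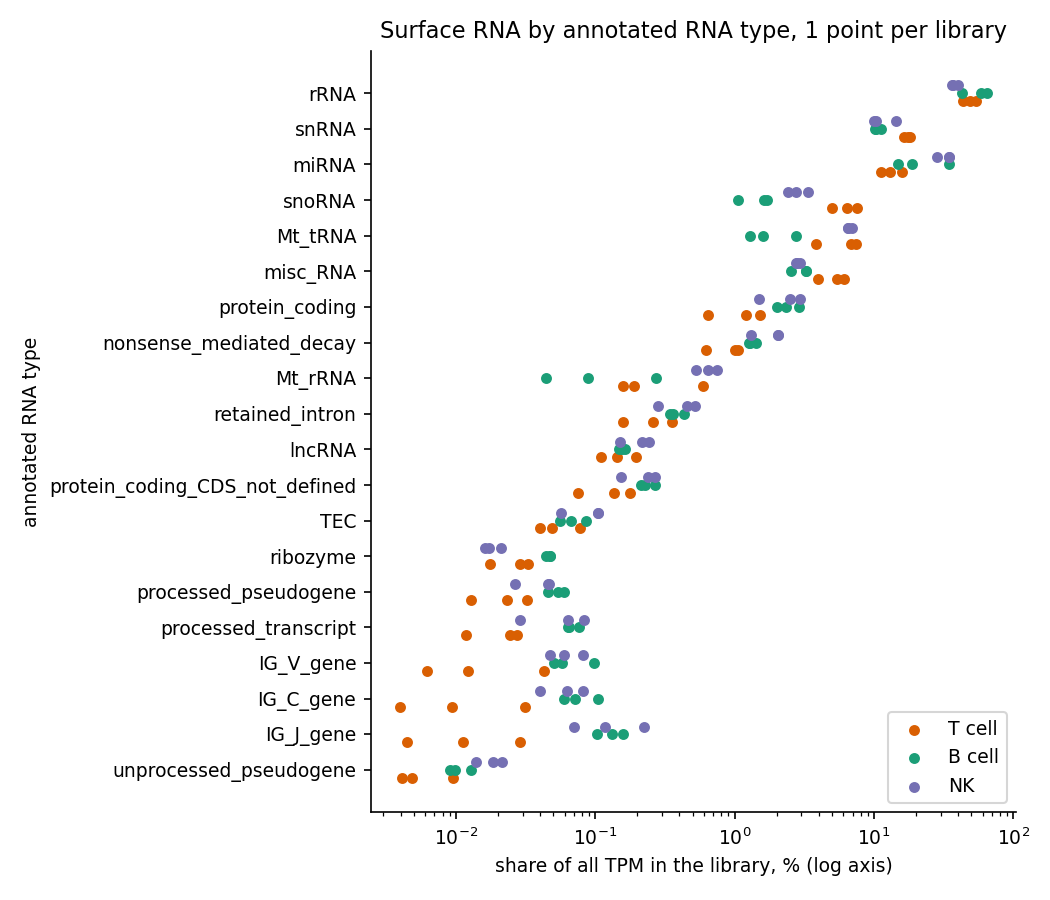
Share of TPM (percent, log axis) by RNA type in each of the 9 libraries. Points are libraries, coloured by cell type; the 3 T cell points for snoRNA, 5.02% to 7.60%, sit above all B cell and NK points.

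Transcript by transcript, 287 of 1353 were higher in T cells than in the mean of B and NK cells (21.2%) and 427 were lower (31.6%), by limma on log2(TPM + 1) with a Benjamini-Hochberg adjusted p below 0.05. The median log2 difference over all tested transcripts was -0.37. Rescaling without ribosomal RNA and the 3 microRNA transcripts moved this median to -1.30 over the 3926 transcripts that then passed the filter, with 297 higher and 2180 lower. Against B cells alone 332 were higher (24.5%) and 404 lower (29.9%), and against NK cells alone 205 were higher (15.2%) and 268 lower (19.8%). Same-numbered T cell and NK libraries deviated together, and with this pairing, in a fit of the T cell and NK libraries alone that was chosen after seeing the data, 263 were higher (19.4%) and 446 lower (33.0%). Both comparisons share the 3 T cell libraries. The 3 T cell libraries lay above the other 6 for 226 transcripts (16.7%) and below them for 228 (16.9%). By type, 146 of 196 snoRNAs and 45 of 164 snRNAs rose, whereas 5 of 485 protein-coding transcripts did. With that rescaling 127 of these snoRNAs and 12 of these snRNAs rose, and with no filter 75 snoRNAs and 1 snRNA did. Library weights ran from 0.20 for B cell replicate 1 to 7.72 for B cell replicate 2, and with them 109 snRNAs rose. The share over all tested transcripts under these weights is not given, so nothing is read from this count. Protein-coding transcripts fell in 266 of 485 cases, but 308 of the 485 had exceeded 10 TPM in B cells or NK cells alone and 6 in T cells alone. A transcript that passed the filter through the group where it is high had to differ, so such counts describe the tested transcripts and give no support for a direction. For a single transcript of this kind the adjusted p sets the difference against the spread of the replicates and is likewise no independent support. With no filter, which adjusts over 96238 transcripts, 119 of the 287 higher and 123 of the 427 lower transcripts passed the test. For snoRNA 167 of 196 exceeded 10 TPM both in a T cell library and in another library. Without T cell replicate 1, 218 transcripts were higher and 250 lower, and protein-coding transcripts fell in 154 cases. Against NK cells the counts moved further, to 121 higher and 162 lower without T cell replicate 1, 116 and 161 without NK replicate 2, and 102 and 134 without NK replicate 3.

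**Figure D2:**
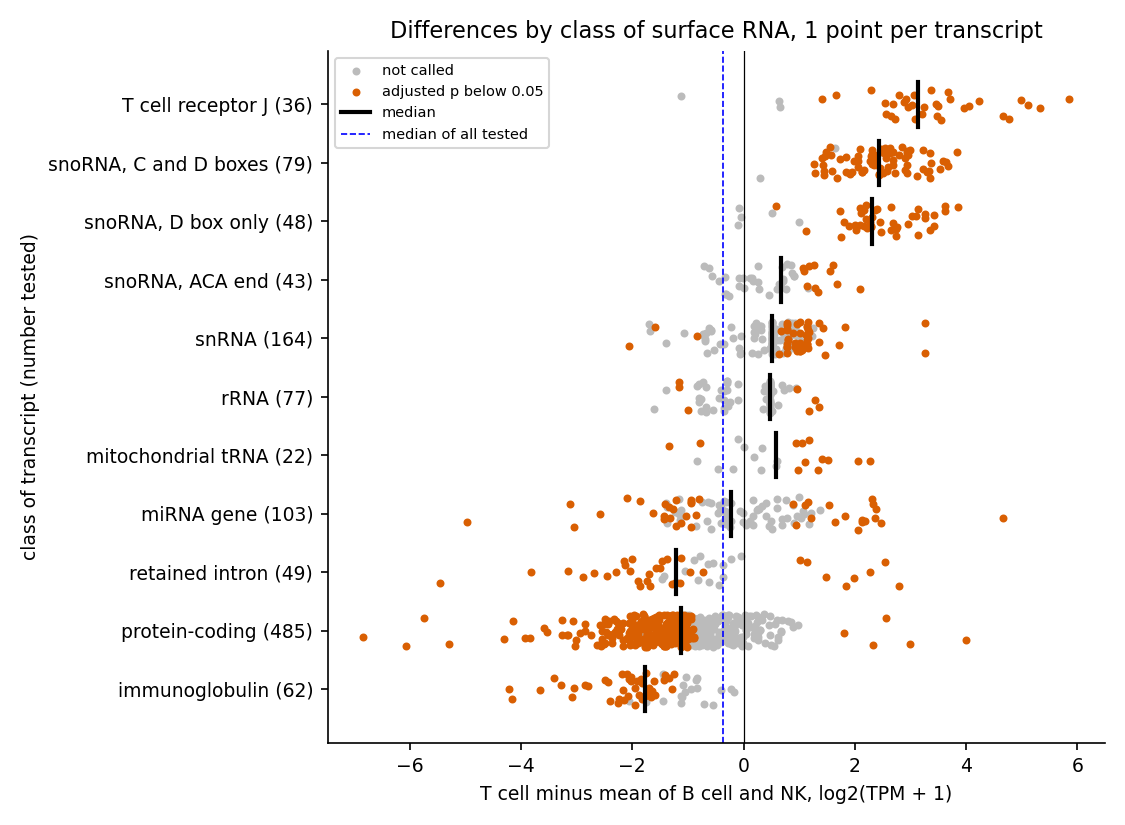
Log2 difference of TPM + 1 between T cells and the mean of B cells and NK cells for tested transcripts of selected classes. Each point is a transcript and the bar is the median of its class. SnoRNAs are drawn by sequence class, with medians of 2.42 (C and D boxes), 2.30 (D box only) and 0.67 (ACA end). The median was -1.13 for protein-coding transcripts. Over all tested snoRNAs, not drawn as 1 class, it was 2.06.

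The transcript with the largest positive difference was Traj21, a J segment of the T cell receptor. A J segment is the short stretch that joins the V region to the constant region, and its unrearranged gene is annotated as a transcript of its own. Of the 46 listed J segments of the alpha chain, 36 were above 0 in all 3 T cell libraries. The 25 that were tested had all passed the filter through T cells alone, which fixed their direction, and 18 of these were listed at 0 in all 6 B cell and NK libraries. A listed 0 can also be a failed estimate, so no fold is given for these. Sequences of leading alpha segments and of contrasting beta segments are given because each encodes part of the receptor chain itself. Capitals mark the letters TTNGGNNNNGG, which spell the Phe-Gly-X-Gly turn of a J segment, searched on the strand of the transcript. These letters stood in 31 of the 36 tested J segments, in 16.9% of the other tested transcripts with a sequence, which include far longer ones, and in 5.10% of the 2451 GENCODE M21 transcripts shorter than 100 bases.
Traj21: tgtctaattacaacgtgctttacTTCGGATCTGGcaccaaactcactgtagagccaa
Traj24: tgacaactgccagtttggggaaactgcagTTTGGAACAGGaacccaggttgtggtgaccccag
Trbj2-7: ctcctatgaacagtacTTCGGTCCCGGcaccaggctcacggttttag
Trbj1-1: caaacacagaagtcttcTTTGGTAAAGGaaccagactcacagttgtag

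On GRCm38, Traj21 lies at chr14:54198790-54198846 and Traj24 at chr14:54195638-54195700, both on the plus strand in the alpha locus, and each J segment is annotated as a gene of its own. Traj21 was at 31.7, 93.0 and 62.2 TPM in T cell replicates 1, 2 and 3 and listed at 0 in all 6 other libraries (limma, adjusted p = 9.57e-07, and 9.08e-04 with no filter). Traj24 was at 18.2, 76.5 and 55.8 TPM, with 0.693 TPM in 1 B cell library as its highest value outside T cells (limma, adjusted p = 5.38e-06, and 0.00233 with no filter). Replicate 2 was the highest and replicate 1 the lowest for both, and this order held for the summed alpha J segments at 232, 771 and 484 TPM. The same sum was 0 to 3.13 TPM in B cells and 0 to 4.08 TPM in NK cells. Trac-202, the constant region of the alpha chain, was at 12.2, 35.7 and 23.5 TPM against at most 0.436 TPM elsewhere, 4.29 higher on the log2 scale (SE 0.38, limma, adjusted p = 7.81e-06, and 0.0018 with no filter). All 3 tested constant regions of the receptor had passed the filter through T cells alone. Without T cell replicate 2, 17 of the 36 tested J segments passed the test in place of 33.

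Beta chain segments separated T cells from B cells but less clearly from NK cells. Summed beta J segments were at 84.9, 219 and 109 TPM in T cells and at 0 in all 3 B cell libraries. In the NK libraries they were at 49.5, 176 and 97.5 TPM, so the ranges of T cells and NK cells overlapped. Within each same-numbered pair the T cell sum was the higher. Of 12 tested beta segments, 7 exceeded 10 TPM in T cells alone and 1 outside T cells alone. Against NK cells 6 of the 12 were higher and none lower, or 5 and 1 with the pairing. Over all tested transcripts these shares were 15.2% and 19.8%, or 19.4% and 33.0% with the pairing. Trbj2-7, at chr6:41543810-41543856 on the plus strand, was at 14.7, 45.3 and 21.1 TPM in T cells and listed at 0 in all 6 other libraries, so that it passed the filter through T cells alone (limma, adjusted p = 5.38e-06, and 0.00152 with no filter). Trbj1-1, at chr6:41533864-41533911 on the same strand, was at 20.6, 19.9 and 6.74 TPM in T cells and 15.7, 61.9 and 32.3 TPM in NK cells, a log2 difference from NK cells of -1.11 (limma, adjusted p = 0.135). The constant regions of the beta chain were read in the same comparison. Trbc2-201 was at 6.27, 23.7 and 16.5 TPM in T cells and 0.548, 2.48 and 2.03 TPM in NK cells, a log2 difference of 2.53, and it too exceeded 10 TPM in T cells alone. Trbc1-202 was at 3.28, 12.4 and 7.76 TPM in T cells and 1.95, 7.25 and 6.32 TPM in NK cells (log2 difference 0.50, limma, adjusted p = 0.463). The 2 constant regions are near-identical copies, so reads may be split between them. Trdj1, a J segment of the delta chain of gamma-delta T cells, was listed at 0 in all T cell libraries and at 0, 15.2 and 5.83 TPM in NK cells, so that NK replicate 1 overlapped T cells. Its only route through the filter was NK replicate 2. Its log2 difference from NK cells was -2.26 (limma, adjusted p = 0.042, and 0.0983 with the pairing), and it did not pass against the mean (limma, adjusted p = 0.164). No gamma chain segment reached the filter. Whether the NK libraries hold RNA from T cells was not tested.

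**Figure D3:**
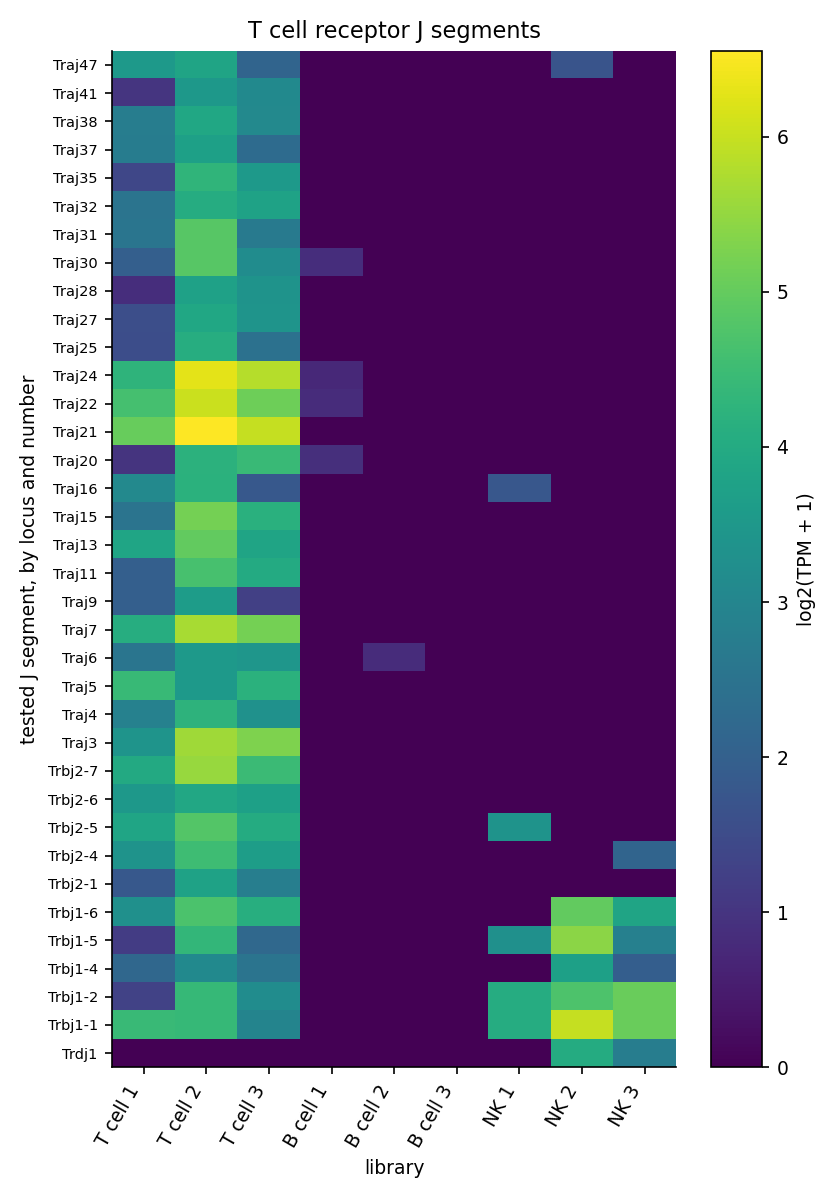
Heatmap of the tested T cell receptor J segments (rows, by locus and number) in the 9 libraries (columns). Colour gives log2(TPM + 1). Sums over the listed segments, which are not drawn, are 232 to 771 TPM for alpha in T cells and at most 4.08 TPM elsewhere. The summed beta segments of NK cells, 49.5 to 176 TPM, overlap those of T cells, 84.9 to 219 TPM.

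Messenger RNA of T cell genes was scarce. Of the 6 tested transcripts of the receptor complex and signalling list 3 rose and 2 fell, and the 3 that rose had passed the filter through T cells alone. Another 2 of the 6 had passed it in B cells or NK cells alone. Cd8b1-201 was 4.00 higher on the log2(TPM + 1) scale (SE 0.37, limma, adjusted p = 1.12e-05, and 0.00159 with no filter). Cd3e-201 was 2.99 higher (limma, adjusted p = 6.47e-05, and 0.00244 with no filter). Thy1-201, a surface glycoprotein of T cells, was at 5.15, 14.4 and 10.4 TPM and 2.56 higher (limma, adjusted p = 0.0154 with no filter), although NK libraries held 0.8 to 2.8 TPM of it. Of the 9 tested transcripts of the naive T cell transcription and homing list, 2 rose and 1 fell, beside 21.2% and 31.6% over all. Tcf7-201, a transcription factor of naive and memory T cells, was at 4.81, 16.8 and 8.74 TPM and 2.33 higher (limma, adjusted p = 1.02e-03, and 0.0337 with no filter), and it too had exceeded 10 TPM in T cells alone. Ly6c2-201, a surface antigen of memory CD8 T cells and monocytes, was 1.80 higher against the mean, at 6.04, 14.5 and 15.5 TPM in T cells and 4.46 to 11.9 TPM in NK cells, and its difference from NK cells alone of 0.43 did not pass the test (limma, adjusted p = 0.48). With no filter the difference of Ly6c2-201 from the mean did not pass either (limma, adjusted p = 0.0654). Isoforms of Ptprc, the CD45 phosphatase, had different patterns. Ptprc-213 was at 4.10, 13.5 and 7.19 TPM in T cells, at most 0.93 TPM in B cells and 5.4 to 16.7 TPM in NK cells, and its difference of 0.97 did not pass the test (limma, adjusted p = 0.080), whereas Ptprc-212 and Ptprc-207, which exceeded 10 TPM in B cells alone, differed by -1.58 and -1.40 and did not pass with no filter (limma, adjusted p = 0.0836 and 0.161).

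Because protein-coding RNA was a small and varying share of each library, its transcripts were also expressed as a share of protein-coding TPM. Cd8b1-201 read 27.0, 32.8 and 28.5 in T cells on this scale, where the replicates lay closer together than by TPM, and its log2 difference was 4.88 with a smaller error (SE 0.13, limma, adjusted p = 3.19e-08). Cd3e-201 was 3.82 higher, Thy1-201 3.48, Tcf7-201 3.24 and Ly6c2-201 2.76. In all, 95 of 485 protein-coding transcripts were higher (19.6%) and 168 lower (34.6%), and their median difference was -0.23 in place of -1.13 on the TPM scale. The receptor complex list then had 4 higher and 1 lower of 6, and the naive T cell list 5 higher and 1 lower of 8, among them S1pr1 and Ccr7, the receptors for lymph node exit and entry, at 1.66 and 1.30 higher. By TPM neither of these receptors passed the test, and T cells overlapped B cells for both.

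Ribosomal protein messenger RNAs were also examined on both scales. Rps29-201 was at 216, 442 and 349 TPM in T cells, 208 to 253 TPM in B cells and 172 to 224 TPM in NK cells, which overlapped, and its TPM difference of 0.60 did not pass the test (limma, adjusted p = 0.097). On the protein-coding scale Rps29-201 was 1.72 higher (SE 0.16, limma, adjusted p = 4.16e-05). The 100 protein-coding transcripts of cytosolic ribosomal protein genes gave none higher and 27 lower by TPM (median -0.74), beside 266 of 485 lower among all protein-coding transcripts, and 40 higher and 11 lower on the protein-coding scale (median 0.34). With transcripts of other types included, 3 of 120 were higher and 34 lower by TPM, beside 21.2% and 31.6% over all, and the 3 that were higher are typed as retained introns. Without T cell replicate 1, 15 of these 120 were lower, beside 18.7% over all, and 52 without NK replicate 1, beside 36.7%. Hcst, the DAP10 adaptor of activating receptors, was 1.70 higher on the protein-coding scale, while by TPM its difference of 0.68 did not pass the test (limma, adjusted p = 0.136) and its T cell values overlapped those of NK cells.

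SnoRNA was the class with the most higher calls. Against B cells 151 of 196 were higher and 1 lower, beside 24.5% and 29.9% over all tested transcripts. Against NK cells 99 were higher and 3 lower, beside 15.2% and 19.8%. With the pairing these were 115 and 7, beside 19.4% and 33.0% over all in that fit. The 200 tested snoRNAs and their Cajal body relatives (scaRNAs) were sorted by letters in their sequence, which was found for 182 of them. A transcript was placed with both boxes when it held TGATGA in its first 30 bases and CTGA in its last 20, or with the ACA end when ACA stood 3 bases before its end without that TGATGA, on its own strand. The 3 box C/D examples below lead the class or sit in well-known hosts, and capitals mark TGATGA and CTGA. The last is an H/ACA example, with its ACA in capitals.
Snord96a: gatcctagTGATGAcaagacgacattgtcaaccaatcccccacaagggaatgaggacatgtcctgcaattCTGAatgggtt
Gm23246: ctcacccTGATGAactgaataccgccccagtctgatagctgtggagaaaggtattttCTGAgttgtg
Snord32a: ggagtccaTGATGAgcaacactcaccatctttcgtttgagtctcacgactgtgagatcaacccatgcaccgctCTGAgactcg
Gm24451: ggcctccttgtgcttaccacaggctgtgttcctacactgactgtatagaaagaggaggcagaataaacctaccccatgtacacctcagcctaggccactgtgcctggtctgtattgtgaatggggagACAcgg

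Each of these lies within a host gene on GRCm38. Snord96a is at chr11:48802032-48802112 in Rack1 on the plus strand, Gm23246 at chr19:8725594-8725660 in Snhg1 on the plus strand, Snord32a at chr7:45127382-45127464 in Rpl13a on the minus strand, and Gm24451 at chr2:130276237-130276369 in Nop56 on the plus strand. Snord32a is intronic in every annotated Rpl13a transcript, Gm23246 and Gm24451 fall in introns or in retained introns of their hosts, and Snord96a overlaps an exon of a Rack1 transcript. Both boxes stood in 20.7% of the 1507 snoRNAs of GENCODE M21 and in 0.223% of the 898 tested transcripts of other types. The ACA end stood in 18.3% and 1.56% of them.

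Transcripts with both boxes rose in 77 of 79 cases, with a median log2 difference of 2.42, and those with the D box alone in 43 of 48, with a median of 2.30. With no filter 40 with both boxes rose. Those with the ACA end rose in 11 of 43 cases, with a median of 0.67, beside 21.2% higher among all tested transcripts. The 2 with both boxes that did not pass the test were Snord17, at 0.29, and Snord65, at 1.64. The classes differ in these counts and medians as a description, and the difference between them was not tested. Against NK cells alone, 52 of 79 with both boxes were higher and none lower, and 3 of 43 with the ACA end were higher and 3 lower, beside 15.2% higher and 19.8% lower over all tested transcripts. The median length was 78 bases with both boxes and 134 bases with the ACA end, and the part of length in this difference was not tested. With single libraries left out, 70 to 78 of 79 with both boxes rose and 4 to 16 of 43 with the ACA end, the latter at 4 without T cell replicate 2, 7 without T cell replicate 3 and 7 without NK replicate 2.

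SnoRNA levels were also summed per library. Those with both boxes summed to 43317, 32532 and 25270 TPM in T cell replicates 1, 2 and 3, to 2653, 3310 and 3266 TPM in B cells and to 17696, 15471 and 12320 TPM in NK cells. T cells were the highest, NK cells lay between, and the groups did not overlap. SnoRNAs with the ACA end summed to 777, 936 and 768 TPM in T cells, 399, 454 and 739 TPM in B cells and 893, 488 and 621 TPM in NK cells, with T cells and NK cells overlapping. The ratio of the first sum to the second was 32.9 to 55.7 in T cells, 4.42 to 7.29 in B cells and 19.8 to 31.7 in NK cells.

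**Figure D4:**
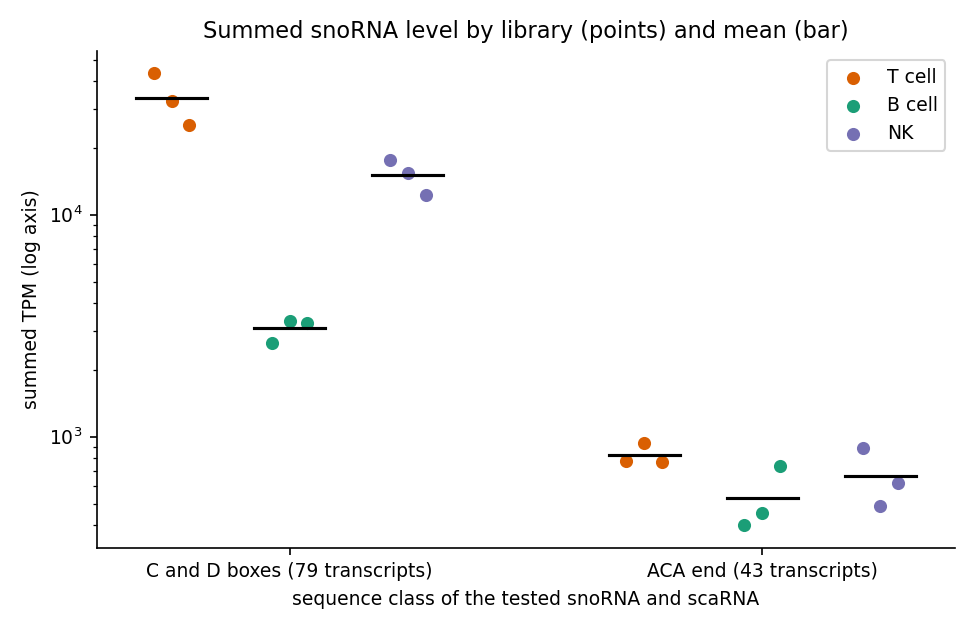
Summed TPM (log axis) of tested snoRNAs and scaRNAs with both the C and D boxes, and of those with the ACA end. Each point is a library; the box C/D sums of T cells, 25270 to 43317 TPM, lie above those of NK cells and B cells, whereas the ACA sums of T cells, 768 to 936 TPM, overlap those of NK cells.

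Among single snoRNAs, Snord96a was at 244, 248 and 168 TPM in T cells, at 0, 7.58 and 13.6 TPM in B cells and at 63.8, 52.2 and 28.3 TPM in NK cells, 3.83 higher (SE 0.69, limma, adjusted p = 8.42e-04), a call that was lost with no filter (adjusted p = 0.071). Gm23246 was at 2136, 1901 and 1083 TPM, against 14.3 to 53.9 TPM in B cells and 466 to 534 TPM in NK cells, 3.67 higher (SE 0.40, limma, adjusted p = 3.26e-05, and 0.013 with no filter). For both of these snoRNAs the T cell values lay above all others. Gm25894, which has the D box alone and also lies in Snhg1, was at 227, 142 and 135 TPM against 2.09 to 9.41 TPM in B cells and 15.1 to 27.8 TPM in NK cells, 3.86 higher (SE 0.42, limma, adjusted p = 3.27e-05, and 0.0147 with no filter). Snord32a, which guides methylation of ribosomal RNA, was at 4755, 2834 and 2330 TPM, 2.90 higher (SE 0.39, limma, adjusted p = 1.31e-04, and 0.0219 with no filter). By contrast Gm24451 was at 132, 144 and 131 TPM in T cells, 46.0 to 227 TPM in B cells and 56.4 to 95.4 TPM in NK cells, and its difference of 0.76 did not pass the test (limma, adjusted p = 0.153). Snora9, another with the ACA end, was at 32.8, 40.9 and 26.2 TPM in T cells, 2.23 to 7.42 TPM in B cells and 41.9, 12.3 and 13.9 TPM in NK cells, so that NK replicate 1 lay above all T cell values. It was 1.68 higher against the mean (limma, adjusted p = 0.0092), which was lost with no filter (adjusted p = 0.168). One snoRNA was lower in T cells, Gm24119, by 1.18 on the log2 scale, and it too did not pass with no filter (limma, adjusted p = 0.336).

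SnoRNAs were then compared with the genes that host them. Of the 182 placed snoRNAs and scaRNAs, 177 lay within 101 host genes, 140 of them in protein-coding hosts. In the annotation 84 were intronic in all transcripts of the host, 64 overlapped retained introns alone, and 29 overlapped another exon of the host. Ribosomal protein genes hosted 49, of which 39 rose, beside 131 of all 177 hosted ones. For 29 of the 71 hosts of a higher snoRNA a transcript of the host was itself tested, and 14 of these 29 had a host transcript that was lower and 5 one that was higher. The 29 protein-coding transcripts of such hosts gave none higher and 13 lower by TPM, beside 266 lower of all 485 protein-coding transcripts, and 7 higher and 6 lower on the protein-coding scale, with a median of 0.00. Gas5, a non-coding host, carried 8 tested snoRNAs, all 8 higher by 1.28 to 3.35. Its snoRNAs summed to 1135, 1169 and 602 TPM in T cells, 48.1 to 79.8 TPM in B cells and 327 to 397 TPM in NK cells. Transcripts of the Gas5 host summed to 3.55, 10.1 and 6.13 TPM in T cells and 7.21 to 31.6 TPM elsewhere, and Gas5-247, its tested transcript, differed by -1.73 (limma, adjusted p = 0.0089). Gas5-247 exceeded 10 TPM in B cells alone, was listed at 0 in all 3 NK libraries and did not pass with no filter (limma, adjusted p = 0.102). Rpl13a, the ribosomal protein gene that hosts Snord32a, Snord34 and Snord35a, was read in the same manner. Its snoRNAs summed to 6752, 4486 and 3529 TPM in T cells, 171 to 322 TPM in B cells and 930 to 2162 TPM in NK cells, whereas the host was at 34.0, 88.2 and 67.4 TPM in T cells and 68.1 to 241 TPM elsewhere, where T cells overlapped NK cells, and none of its 4 tested transcripts passed the test.

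Snhg1 was the third of these hosts. Its 7 tested snoRNAs were all higher, by 1.74 to 3.86, and summed to 4873, 5284 and 3289 TPM in T cells against 336 to 1445 TPM elsewhere. The host itself summed to 182, 228 and 119 TPM in T cells, 15.5 to 23.2 TPM in B cells and 43.8 to 63.9 TPM in NK cells. Snhg1-213, a retained intron that was 2.54 higher, contains Snord22 in full, over 25.5% of its length. The same held for Rpl4-203 with Snord16a and Eif4a2-219 with Gm26447, both of them retained introns that were higher, although neither passed with no filter (limma, adjusted p = 0.0636 and 0.264). Reads of such a snoRNA cannot be told from those of the retained intron that contains it.

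**Figure D5:**
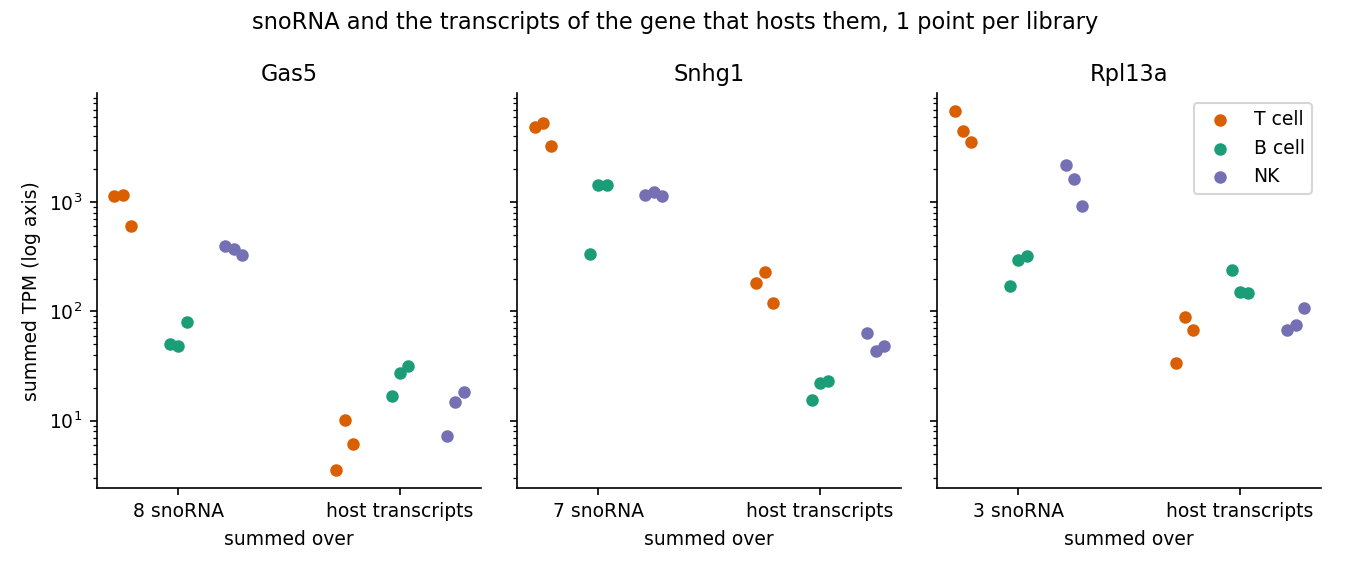
Summed TPM (log axis) of the snoRNAs of Gas5, Snhg1 and Rpl13a and of the transcripts of these host genes, per library. Points are libraries by cell type; snoRNA sums are highest in T cells for all 3 hosts, whereas host sums are highest in T cells for Snhg1.

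Other small structured RNAs were examined by family. Rn7s1 and Rn7s2, the same-valued 7SL RNAs of the signal recognition particle, were each at 24704, 25600 and 16308 TPM in T cells against 9371 to 12799 TPM elsewhere, 1.02 higher (SE 0.20, limma, adjusted p = 1.57e-03, and 0.0257 with no filter). Rny3, a Y RNA bound by the Ro protein, was at 995, 2203 and 902 TPM in T cells, 275 to 357 TPM in B cells and 1164 to 1732 TPM in NK cells, so it was 0.85 higher against the mean (limma, adjusted p = 0.041, and 0.267 with no filter) but overlapped NK cells. Of the 8 tested members of the list of Y, vault, 7SK, 7SL, RNase P, MRP and telomerase RNAs, 3 rose and none fell, and these 3 were Rny3 and the same-valued Rn7s1 and Rn7s2. Rnu7, the U7 RNA of histone pre-mRNA processing, was at 8730, 5198 and 4258 TPM in T cells and 468 to 580 TPM in B cells but 4632 to 5779 TPM in NK cells, so that it was 1.81 higher against the mean and 0.20 against NK cells alone (limma, adjusted p = 0.615). Of 22 mitochondrial transfer RNAs 10 rose and 2 fell against the mean, beside 21.2% and 31.6% over all, and none of these passed the limma test with no filter. Against B cells 13 rose and none fell, beside 24.5% higher over all tested transcripts, and against NK cells none rose and 5 fell, close to the 19.8% lower over all. Of 77 tested ribosomal RNA transcripts, many of which share their values, 4 rose and 3 fell against the mean. Against NK cells 36 rose and 1 fell, beside 15.2% and 19.8% over all. Against B cells 3 rose and 18 fell, beside 24.5% and 29.9%. Rn18s-rs5, an 18S ribosomal RNA copy, was lower by 0.99 at 45969, 73382 and 70032 TPM against 100592 to 165590 TPM (limma, adjusted p = 1.69e-03, and 0.0506 with no filter), and 0.12 higher after quantile normalization.

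MicroRNA genes went both ways, with 18 of 103 higher and 23 lower, both smaller shares than the 21.2% and 31.6% over all tested transcripts. With no filter 3 of the 18 and 3 of the 23 passed. Against B cells 28 were higher and 15 lower, beside 24.5% and 29.9% over all. Against NK cells 5 were higher and 21 lower, beside 15.2% and 19.8%. With the pairing these were 9 and 30, beside 19.4% and 33.0% over all in that fit. The values are of the hairpin transcript, not of the mature strands. Mature sequences were found for 56 of the 103, and those of selected members are given with the seed, bases 2 to 8, in capitals. The hairpins of those shown differed by 0.89 to 2.47, so they do not all lead. Gm54588, typed as microRNA and without a sequence here, had the largest difference among the named microRNA transcripts, at 4.67 (SE 1.12, limma, adjusted p = 0.0051). It was at 1707, 1192 and 1066 TPM in T cells, at most 72.6 TPM in B cells and 46.8 to 504 TPM in NK cells. With no filter it did not pass (limma, adjusted p = 0.156), nor against NK cells alone (limma, adjusted p = 0.151). Mir677, Mir3068 and Mir1904, not shown, were higher by 2.36, 2.33 and 2.31 (limma, adjusted p = 0.0017, 0.0015 and 0.0027). With no filter Mir677 did not pass (limma, adjusted p = 0.0975). The other strand of miR-150 was not used here.
miR-150-3p: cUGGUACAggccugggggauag
miR-27b-3p: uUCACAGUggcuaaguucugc
miR-24-3p: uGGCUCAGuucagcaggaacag
miR-23b-5p: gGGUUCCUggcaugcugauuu
miR-142a-3p: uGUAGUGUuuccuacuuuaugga

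Mir150, abundant in mature lymphocytes, was at 417, 229 and 194 TPM in T cells, 19.5 to 76.9 TPM in B cells and 33.5 to 71.6 TPM in NK cells, 2.47 higher (SE 0.45, limma, adjusted p = 9.80e-04) and 2.37 higher than in NK cells alone (adjusted p = 0.0053). With no filter Mir150 did not pass against the mean (limma, adjusted p = 0.0772). Its 3 T cell values lay above all others. Mir23b, Mir27b and Mir24-1, neighbours in 1 cluster on chromosome 13, were higher by 1.53, 2.13 and 2.13, but with no filter Mir27b alone of these 3 passed (limma, adjusted p = 0.029, against 0.0843 for Mir23b and 0.151 for Mir24-1). Mir23b and Mir24-1 exceeded 10 TPM in T cells alone, and T cells overlapped NK cells for Mir24-1. Mir27b was at 24.7, 15.5 and 22.7 TPM in T cells, and its difference from NK cells alone was 1.65 (limma, adjusted p = 0.012). The seeds shown for these 3 differ. Their paralogs Mir23a, Mir27a and Mir24-2 differed by -0.66, 0.24 and 0.39 and did not pass the test, although Mir27a shares the seed of miR-27b-3p and Mir24-2 gives the same miR-24-3p. Mir142, a hairpin specific to blood cells, was 0.89 higher against the mean, which was lost with no filter (limma, adjusted p = 0.307), and 0.22 against NK cells alone, which did not pass the test. Mir5120 and Mir7086 exceeded 10 TPM outside T cells alone, which fixed their direction. Mir5120 was listed at 0 in all T cell libraries and was at 20.1 to 46.6 TPM in B cells and 1.21 to 1.52 TPM in NK cells (log2 difference -3.05, limma, adjusted p = 0.00297 with no filter). Mir7086 was at 0, 1.04 and 1.32 TPM in T cells and 4.21 to 16.1 TPM elsewhere (log2 difference -2.58, limma, adjusted p = 0.0458 with no filter).

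The messenger RNAs lowest in T cells were those of B cell antigen presentation. Cd74, the invariant chain of MHC class II, was read from Cd74-201 at 0.129, 0.629 and 1.06 TPM in T cells, 618, 519 and 449 TPM in B cells and 53.8, 61.6 and 63.8 TPM in NK cells, lower by 6.84 on the log2 scale (SE 0.31, limma, adjusted p = 8.07e-08, and 9.36e-04 with no filter). The MHC class II chain transcripts H2-Aa-201 and H2-Ab1-201 differed by -6.07 and -5.74, and H2-Eb1-205, typed as a target of nonsense-mediated decay, by -4.56. None of these exceeded 10 TPM in T cells, and with no filter all 3 passed (limma, adjusted p = 9.08e-04, 9.08e-04 and 0.00142). Of the 35 tested transcripts of the B cell list 33 had passed the filter in B cells or NK cells alone, which fixed their direction, so their count is not given. Ighm-201 and H2-Ab1-206 did not pass the test. Cd79a-201, a signalling chain of the B cell receptor, differed by -4.15 (limma, adjusted p = 0.00148 with no filter). Immunoglobulin segments, of which 44 of 64 had passed the filter in B cells or NK cells alone, summed to 166, 353 and 1090 TPM in T cells, 2607 to 3991 TPM in B cells and 1780 to 4496 TPM in NK cells. T cell replicate 3 was again the highest of the 3, and the ranges of B cells and NK cells overlapped.

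Of the 10 tested transcripts of the NK list 9 had likewise passed the filter without T cells. Nkg7-201, a granule membrane protein of cytotoxic lymphocytes, was at 4.31, 9.87 and 7.99 TPM in T cells, 11.7, 38.7 and 36.0 TPM in NK cells and at most 0.14 TPM in B cells. Ccl5, a chemokine of cytotoxic cells, was at 6.54 to 17.8 TPM in T cells and 134 to 307 TPM in NK cells. Replication-dependent histone transcripts fell in 39 of 51 cases by TPM, beside 266 of 485 among all protein-coding transcripts, but on the protein-coding scale 19 fell and 3 rose, near the 34.6% lower over all. Against NK cells 48 fell by TPM, beside 169 of 485 among all protein-coding transcripts. Against B cells 16 fell and 1 rose, beside 233 and 19 of the 485. Of the 51, 26 had exceeded 10 TPM in B cells or NK cells alone. The median log2 difference of these histone transcripts was -2.15 from NK cells and -0.69 from B cells.

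Other lists fixed for messenger and long non-coding RNA were counted on both scales. MHC class I and peptide loading transcripts fell in 8 of 13 cases by TPM with none higher, beside 31.6% lower and 21.2% higher over all. Of these 13, 7 had passed the filter without T cells. The 7 that are protein-coding gave 6 lower by TPM, beside 266 of 485 protein-coding transcripts. On the protein-coding scale 4 of these 7 fell and 1 rose, beside 34.6% and 19.6% over all. Housekeeping transcripts fell in 27 of 39 cases by TPM, with 1 higher and a median of -1.32, beside 31.6% lower and 21.2% higher over all. Of these 39, 21 had passed the filter without T cells. The 30 that are protein-coding gave 21 lower by TPM, beside 266 of 485. On the protein-coding scale 12 of these 30 fell and 5 rose, beside 34.6% and 19.6% over all. None of the 12 tested mitochondrial messenger RNAs passed the limma test against the mean, and none had an unadjusted p below 0.05 there. Against B cells 2 of them were higher, beside 24.5% over all, and their median difference was 1.64 from B cells and -1.35 from NK cells. With the pairing 4 of them were lower than in NK cells, a share near the 33.0% over all tested transcripts in that fit. Transcripts of Malat1, a nuclear long non-coding RNA, had different values. Malat1-204 was at 0, 0.444 and 3.21 TPM in T cells and 6.08 to 60.2 TPM elsewhere, a log2 difference of -3.75 (limma, adjusted p = 0.0165 with no filter), and it exceeded 10 TPM outside T cells alone. Malat1-202 exceeded it in T cells alone, and its difference of 1.88 did not pass with no filter (limma, adjusted p = 0.102). Malat1-201 differed by -0.22 and did not pass the test. T cells overlapped NK cells for Malat1-202, at 3.99 to 22.2 TPM against 3.55 to 7.77 TPM. No transcript of the snoRNA assembly protein list reached the filter.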

How the data were processed

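AMOUR surface RNA of T cells, B cells and NK cells (3 libraries each) was analysed from the deposited TPM, which the authors estimated with Kallisto after trimming and duplicate removal. The submitters' processing notes also list cutadapt, STAR, featureCounts and mm10, and the mouse transcript set is not given in the sources used here. TPM holds no depth. Transcripts above 10 TPM in at least 1 of the 9 libraries were compared on log2(TPM + 1), pseudocount 1, with limma 3.58.1 (lmFit, eBayes with trend) in R 4.3.3, fitting the 9 libraries together and adjusting p by Benjamini-Hochberg over the 1353 tested. Fold changes on this scale understate scarce transcripts. Protein-coding values were divided by the protein-coding TPM of the library and multiplied by the median of that sum. RNA type shares were tested by a two-sided exact permutation test in Python 3.11.15, with types under 0.01% on average summed. The study used DESeq2 on counts, which were not used here. The 1353 transcripts had 1225 distinct patterns of values. Named transcripts were the largest called differences overall and per RNA type whose T cell libraries did not overlap the other 6, the most abundant, and list members, with same-valued copies counted once. Some examples (Snord32a, Gm24451, Trbj1-1) were chosen after their values were seen. The members and lists were chosen with earlier results of these data known. Sequences and positions are from GENCODE M21 (GRCm38), matched by transcript ID without version for 1080 of 1353, so the models may differ from those quantified. Mature microRNA sequences are from RefSeq (GRCm38.p6). Scripts were tested on simulated data. Alternatives were other pseudocounts, filters, scalings and normalizations, library weights, a replicate block and leaving out each library. Monocytes, HSPCs and the total RNA libraries were left out. Replicate numbers were checked by the correlation of deviations from the group means: same-numbered T cell and NK libraries had r of 0.26 to 0.51 in all 3 pairs, and those of T cells and B cells -0.35 to -0.075. The numbers were therefore read as pairing T cells with NK cells, a hint from the data that no label states.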

Additional observations from a re-analysis of the deposited data

How the results depend on the processing

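Of 100 named transcripts that passed the test, 59 kept their call under all alternatives run and 1 reversed, Rn18s-rs5-201, at 0.12 after quantile normalization. Rps29-201, which had not passed, reversed there to -0.11. The higher and lower counts of T cells against the mean were 173 and 107 with a minimum of 50 TPM in 1 library and 568 and 3535 with a minimum of 1 TPM. The lower count was 247 with 10 TPM in at least 3 libraries, 1267 with no filter, and 2180 after rescaling without ribosomal RNA and 3 microRNA transcripts, when it was 2201 against B cells and 1161 against NK cells. These settings test fewer or more transcripts. On the protein-coding scale the counts were 32 and 29 at 50 TPM, the lower count 94 at 10 TPM in 3 libraries, and 6 and 283 with TPM as deposited. With no filter 75 snoRNAs rose, 40 of them with both boxes, and at 50 TPM 5 J segments did. With library weights, which were very uneven, 109 snRNAs rose, and the share over all transcripts in that fit is not given. The mean Pearson r of T cell replicates was 0.958 on log2(TPM + 1).

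Without ribosomal RNA and the 3 microRNA transcripts the log2 ratio of shares was -0.39 for Mt_rRNA (reversed), -0.96 for TEC, -0.70 for lncRNA, -1.48 for miRNA, -1.12 for retained_intron and 1.35 for other types (all 5 now passed), and 0.38 for misc_RNA and 0.23 for snRNA (no longer passed). As differences in percent, Mt_rRNA was -0.0742 (reversed), and nonsense_mediated_decay at -0.672, processed_pseudogene at -0.0235, protein_coding at -1.24, protein_coding_CDS_not_defined at -0.0990 and unprocessed_pseudogene at -0.00805 no longer passed. The cause was not tested.

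With single libraries left out, the lower count was 250 to 492 against the mean, and against NK cells 102 to 218 were higher and 134 to 349 lower. Log2 ratios of shares ran from -3.46 to -1.97 for IG_C_gene, -4.16 to -2.81 for IG_J_gene, -2.87 to -1.48 for IG_V_gene, -0.56 to 0.39 for Mt_rRNA, -1.16 to -0.87 for miRNA, 0.68 to 0.99 for misc_RNA, -0.96 to -0.57 for nonsense_mediated_decay, -1.38 to -0.71 for processed_pseudogene, -1.83 to -1.22 for processed_transcript, -1.38 to -0.77 for protein_coding, -1.15 to -0.53 for protein_coding_CDS_not_defined, -0.37 to 0.0790 for ribozyme, 0.62 to 0.73 for snRNA, 1.46 to 1.80 for snoRNA and -1.60 to -1.0 for unprocessed_pseudogene. With 2 T cell libraries the exact test cannot pass after adjustment, so these ranges say nothing on calls.

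Same-numbered T cell and NK libraries deviated together, and those of the other pairs of types did not. With the replicate number as a block, 281 transcripts were higher and 424 lower against the mean, 323 and 402 against B cells, 191 and 280 against NK cells, and 101 and 175 on the protein-coding scale. For T cells and NK cells alone, a fit chosen after seeing the data, the block gave 263 higher and 446 lower, against 209 and 245 without it. TPM keeps no depth, so what depth limits cannot be given.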
